A study of Mus musculus with 125 samples.

Results

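Regions of open chromatin that mouse endothelial cells gained after embryonic day 12 (E12) were followed across organs, ages and whole-tissue controls. Overlapping peaks of the 37 endothelial ATAC-seq lists were merged by at least 1 shared base, which gave 275396 regions. A region was kept where at least 2 adult endothelial libraries of each of 3 or more organs had a peak and none of the 11 E12 endothelial libraries did. Of 22662 regions that met the adult condition, 181 (0.799%) met both and are called gained regions below. The other 22481 had a peak in at least 1 E12 endothelial library and are called already open. The adult and E12 endothelial peaks chose the gained regions, so their values in those libraries are a description and were not tested.

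The study compared endothelial nuclei with input nuclei of the whole tissue, as the labels name them, by ATAC-seq, which maps DNA accessible to a transposase. Adult mice were 2 months old and gave 12 endothelial and 10 input libraries of brain, retina, heart, lung, liver and kidney. P6 pups gave 14 and 16 libraries of the same organs, and E12 embryos gave 11 and 3 libraries of brain, heart and trunk. Lung, liver, kidney and retina therefore had no E12 library of their own, and 13 of the 181 gained regions were open in neither adult brain nor adult heart, the organs with libraries at both ages. Per the labels' protocols, all 3 ages received tamoxifen at 0.015 mg per kg, which switches on a GFP reporter in vessels. It was given to pregnant dams at E10.5, to pups at P1 and P3, and to adults 7 days before collection. The protocol places collection at E12.5 and at P7 where the group labels say E12 and P6, and the group names are kept here. The gene that drives the recombinase, the strain and whether animals were pooled are not given in the sources used here. Each E12 and adult organ had 2 to 4 endothelial libraries. At P6 each organ had 2 or 3 endothelial and 2 or 3 input libraries. All p-values below compare these P6 libraries and measure the spread between libraries, which may be technical.

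Endothelial cells line all blood vessels. Distal open regions are often enhancers, stretches of DNA that bind transcription factors and can raise the activity of a gene some distance away, while promoters lie at gene starts and are commonly open in many cell types and ages. Between the embryo and the adult, endothelial cells leave the proliferating state of growing vessels and take up functions of the resting vessel wall.

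Of the 181 gained regions, 3 covered a whole promoter window, from 250 bases before to 50 after a gene start in RefSeq (GRCm38.p6). They belong to Fmo2, a flavin-containing monooxygenase that oxidises foreign compounds, Tgtp2, an interferon-induced GTPase, and Lipe, hormone-sensitive lipase. The 250 bases before each start are shown because these are the gained regions whose sequence lies at a gene start. Capitals mark matches, on either strand, to the short motifs named after them.
Fmo2, chr1:162898494-162898743, minus strand: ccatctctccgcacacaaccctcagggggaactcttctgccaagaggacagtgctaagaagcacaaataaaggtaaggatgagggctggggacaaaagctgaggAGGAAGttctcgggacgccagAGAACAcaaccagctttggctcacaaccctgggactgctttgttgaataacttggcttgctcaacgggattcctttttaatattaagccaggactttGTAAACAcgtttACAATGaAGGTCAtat
Tgtp2, chr11:49064213-49064462, minus strand: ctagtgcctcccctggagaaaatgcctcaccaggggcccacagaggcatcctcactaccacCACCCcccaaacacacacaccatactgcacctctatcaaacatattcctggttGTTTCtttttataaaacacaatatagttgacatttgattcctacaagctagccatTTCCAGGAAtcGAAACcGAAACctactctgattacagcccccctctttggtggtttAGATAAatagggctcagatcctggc
Lipe, chr7:25390113-25390362, minus strand: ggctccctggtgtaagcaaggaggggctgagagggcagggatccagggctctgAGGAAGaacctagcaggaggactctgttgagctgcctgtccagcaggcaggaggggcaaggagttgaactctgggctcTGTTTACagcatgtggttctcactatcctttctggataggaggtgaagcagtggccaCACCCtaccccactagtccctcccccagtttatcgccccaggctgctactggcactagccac

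The 11 motifs searched do not overlap one another in these windows. The table held 32851 promoter windows, and the shares that follow are those with a match in their 250 bases. The ETS core AGGAAG was present in Fmo2 and Lipe and in 29.5% of all windows. The CACCC box of KLF and SP factors was present in Tgtp2 and Lipe and in 52% of all windows. The interferon-response core GAAAC occurred 3 times in Tgtp2, 70 and 64 bases before the start and on the other strand 136 bases before it. It was present in 39.7% of all windows. Tgtp2 also held the STAT spacing TTCNNNGAA (7.02% of windows) and the GATA motif AGATAA (9.99%). The forkhead motif TGTTTAC (3.17%) was present in Fmo2 and Lipe. Fmo2 further held AGAACA of the glucocorticoid receptor (16.1%), ACAATG of SOX factors (10.7%) and AGGTCA of nuclear receptors (14%). The AP-1 motif TGANTCA (6.75%) and the clock E-box CACGTG (6.02%) had no match in the 3 windows. A match is a description of letters, not of a bound site. Fmo2 has another start 265 bases upstream in the table, so the window shown lies downstream of that start. At P6 the region of Fmo2 had a peak in 5 of 14 endothelial and 9 of 16 input libraries, that of Tgtp2 had a peak in 7 of 14 endothelial and 5 of 16 input libraries, and that of Lipe in 7 and 13. At adult they had a peak in 6, 2 and 9 of 10 input libraries, and the Lipe region had one in 1 of 3 E12 input libraries. None of the 3 regions met the rule with either stricter peak setting described below. The region at Lao1, an L-amino acid oxidase gene, covered 37 bases of its window and is not shown.

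Library depth ranged from 10.1 M to 59.1 M tags kept. The endothelial lists held 19464 to 47334 peaks at adult, 27160 to 92863 at P6 and 39096 to 120456 at E12, with medians of 36755.5, 69067.5 and 101233 and overlapping ranges. Of 10 general endothelial genes with a start in the table, 8 to 10 had a promoter peak in adult endothelial lists, 9 to 10 at P6 and all 10 at E12. Of 9 mural cell genes, a median of 8 had one in E12 endothelial lists, 5 at P6 and 0.5 at adult. The medians were 5, 3 and 1.5 of 8 fibroblast genes and 4, 2.5 and 0.5 of 16 organ parenchyma genes. They were 3, 2 and 1 of 11 immune genes and 1, 1 and 0 of 8 erythroid genes. Input lists of E12, P6 and adult had medians of 9, 6 and 1.5 mural and 6, 4.5 and 1.5 fibroblast genes. Their medians were 4, 5 and 3 organ parenchyma, 2, 3 and 1.5 immune and 5, 1 and 0 erythroid genes. E12 heart endothelial library 3 covered 78.9% of the already open regions, against 94.3 to 97.7% in the other E12 endothelial libraries. The first P6 brain library covered 75.9%, against 92.3 to 98.7% in the other 13 P6 endothelial libraries. Adult lung endothelial library 2, with the shortest endothelial list, covered 69.1%, against 78.7 to 93.8% in the other adult endothelial libraries. The part that list length or nuclei of other cell types play in the choice of gained regions was not tested beyond the alternatives given next.

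Most gained regions sat near the edge of the rule. At adult, 124 were open in 3 organs, 45 in 4, 7 in 5 and 5 in all 6, whereas 11198 of the already open regions were open in all 6. Just outside the rule lay 590 regions with 2 adult organs and no E12 peak, and 87 regions with 3 or more organs and exactly 1 E12 library, which was E12 heart endothelial library 4, with the longest list of the 11, for 35 of them. The membership depended on the peak threshold. With only peaks of −log10 q of at least 5, 58 regions met the rule, of which 18 overlapped a gained region. With each endothelial list shortened to its 19464 strongest peaks, 859 regions met it, and 29 of the 181 gained regions were among them. The 14 gained regions that met the rule under both settings lie nearest to Cobl, Sos2, Gfod1, Xdh, Lims2, Lmnb1, Synpo, Atp8b1, Cry2, Sgk2, Acacb, Mmp2, Sntb2 and Rtp3.

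The gained regions had lower peaks than the already open ones. The median fold, the authors' enrichment of each peak above its local background, was 3.64 over the adult endothelial libraries with a peak, against 4.36. Within their own lists these peaks ranked at a median percentile of 36.7, against 61.6. Their median width was 644 bases (334 to 1837), against 1188. A merged region spans all its overlapping endothelial peaks, and by the rule a gained region has none from E12, so the widths are not like for like. The median was 972 bases for already open regions of exactly 3 organs and 725 for those with a peak in 1 E12 library. The rule sets a lower limit on the number of adult libraries and no upper limit, and both sets of regions meet it. Among regions of exactly 3 organs the median fold was 3.64 for gained and 3.84 for already open ones.

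Gained regions lay away from gene starts. Their median distance to the nearest protein-coding gene start was 23.9 kb, against 3.36 kb for already open regions. Only 7 of 181 (3.87%) lay within 1 kb of a start, against 45.3%, and 4 (2.21%) overlapped a promoter window, against 37.4%. Part of this gap goes with the number of organs. The already open regions of exactly 3 organs lay at a median of 22.4 kb, beside 27.5 kb for gained regions of 3 organs, and 13.0% of them but none of the 124 gained ones lay within 1 kb. Gained regions lay inside a protein-coding gene in 103 cases (56.9%), against 64.9% of already open regions, and whether these are exons or introns was not analysed here. For 69 gained regions the nearest gene has no start in the table used and its nearer end was taken instead, so for these genes the position relative to the start is not known.

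**Figure D1:**
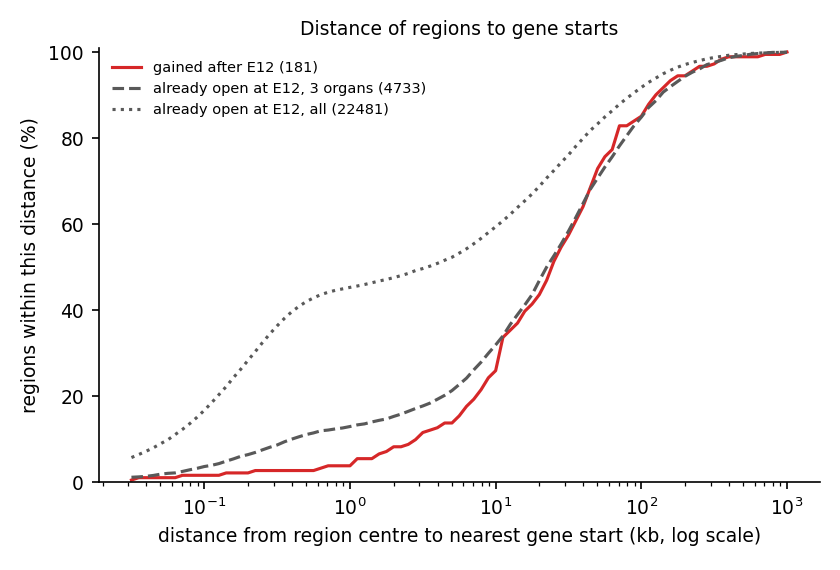
Cumulative share of regions (y axis, percent) within a given distance of the nearest gene start (x axis, kb, log scale), for the 181 gained regions, the 4733 already open regions of exactly 3 adult organs and all 22481 already open regions. The gained regions follow the 3-organ regions beyond about 10 kb and lie below both curves closer in, with 3.87% within 1 kb.

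Of the gained regions, heart had 132 (72.9%), kidney 128 (70.7%), liver 108 (59.7%), brain 102 (56.4%), lung 75 (41.4%) and retina 72 (39.8%). Of the already open regions, 86.9% were open in heart, 83.5% in kidney, 89.3% in liver, 86.7% in brain, 67.9% in lung and 77.6% in retina, and 49.8% were open in all 6 organs. The 181 regions fell into 31 organ combinations, of which heart with liver and kidney was the most frequent at 26, followed by heart, lung, liver and kidney at 16. Brain and retina, whose vessels form a barrier to the blood, both counted as open in 59 regions and neither did in 66. An organ did not count where only part of its adult libraries had a peak. Regions that counted in neither are thus not all without peaks there. Those of Tgtp2 and Sgk2 had a peak in 50% of the adult libraries of each. Among regions of exactly 3 organs, 40.3% of the gained and 32.4% of the already open ones counted as open in neither. For regions of 4 organs the shares were 35.6% and 19.8%. These counts come from the libraries that chose the regions and carry no test.

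The regions described next are the 10 with the most adult libraries, where the 16 regions tied at 10 libraries were ordered by median adult fold and the first 3 were taken. The regions of Tgtp2 and Lipe are among the tied regions not taken. The 5 open in all 12 adult endothelial libraries lie nearest to Cry2, Xdh, Sos2, Tgm2 and Gfod1. The region of Cry2, a repressor of the circadian clock, is at chr2:92423650-92424413 inside the gene, 10.0 kb from its start. Its fold over the 12 adult libraries ran from 2.54 through a median of 4.41 to 4.84. It had a peak in all 14 P6 endothelial libraries. It also had one in all 10 adult input and 15 of 16 P6 input libraries, so endothelial and whole-tissue lists could not be separated there.

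The region of Xdh, which makes urate from purines, is at chr17:73941887-73942918 inside the gene. Its adult folds ran from 3.06 through 4.02 to 4.73. It had a peak in 8 of 14 P6 endothelial libraries, among them both libraries of heart, lung and liver and none of the 3 of retina. The region of Sos2, an exchange factor that activates Ras, lies 1.94 kb from its start at chr12:69683587-69684005. Its adult folds ran from 2.95 through 3.96 to 5.66. It had a peak in 10 P6 endothelial libraries, again in none of retina, and in 9 adult input libraries. Tgm2, which cross-links proteins of the matrix, has its region at chr2:158136018-158136667 within the gene. Adult folds there ran from 2.48 through 3.44 to 4.64, with P6 peaks in 10 endothelial libraries and none in retina. Xdh, Sos2 and Tgm2 thus shared presence in both adult retina libraries and absence from all 3 P6 retina endothelial libraries. The same held for 18 of all 72 gained regions open in adult retina, these 3 included. Of P6 input libraries, Sos2 had a peak in 14 of 16, among them 2 of 3 of retina, Xdh in 9 and Tgm2 in 6, and neither Xdh nor Tgm2 had one in retina input. The region of Gfod1 at chr13:43239831-43240395 had adult folds from 2.59 through 3.44 to 4.46 and a peak in 13 of 14 P6 endothelial and 11 of 16 P6 input libraries.

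The next 5 regions had peaks in 10 or 11 adult libraries. The region of Lims2, an adaptor of focal adhesions, lies at an end of the gene, with adult folds from 2.42 through 4.18 to 4.94. One of 3 regions near Ly6e, an interferon-induced surface protein, is at chr15:74930329-74931512, with adult folds from 2.94 through 3.52 to 4.14. The region of Fas, the death receptor, at chr19:34327921-34328573, had adult folds from 2.62 through 4.58 to 6.05. It stood apart from the others at P6, with a peak in 3 of 14 endothelial libraries, of which 2 were heart and 1 was brain. It had a peak in 1 adult input library and in no P6 input library. The region of Lmnb1, a protein of the nuclear lamina, had adult folds from 3.49 through 4.17 to 4.87 and 13 P6 endothelial peaks. The region of Sgk2, a kinase, lies inside the neighbouring gene L3mbtl1 and had adult folds from 3.49 through 4.44 to 6.08, with 12 P6 endothelial peaks. P6 input libraries with a peak numbered 11 for Sgk2, 9 for Lmnb1, 8 for Lims2 and 8 for this Ly6e region, so whole tissue held these regions as well.

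The 181 gained regions had 173 distinct nearest genes, or 0.790% of the 21900 protein-coding genes, and 17 of them were in lists of endothelial functions. Of 26 genes of MHC class I and interferon response, 3 (11.5%) were nearest to a gained region, namely Irf1, Ly6e and Nlrc5, the activator of MHC class I genes. Of 22 xenobiotic and oxidative enzyme genes there were 3 (13.6%), Aldh2, Fmo2 and Por, the reductase that feeds electrons to cytochromes P450. In these 3 the region lay inside the gene. Of 18 clock genes there were 2, the repressor Cry2 and the activator Arntl. The Arntl region spanned 2 regions of the adult lists, and it did not meet the rule where regions were merged from the adult lists alone. Of 20 glucocorticoid response genes there were 2, the transcription factor Klf9 and the kinase Sgk1. Of 25 endothelial transcription factor genes there were 2, the ETS factors Elk3 and Etv6. Single genes came from 5 other lists. They were Emcn, an endothelial sialomucin, of 18 general endothelial genes, Lipe of 18 lipid genes, Vcam1, which binds leukocytes, of 19 adhesion genes, Insr, the insulin receptor, of 20 growth factor signalling genes, and Col4a2, a basement membrane collagen, of 19 matrix genes. The Col4a2 region lies inside the adjoining gene Col4a1. None came from the lists for haemostasis (18 genes), flow response (16), Notch (15), BMP and TGF-beta (20) and cell cycle (18), nor from the 5 lists for immune, mural, fibroblast, erythroid and organ parenchymal cells (74 genes). A further region lies inside Tek, the angiopoietin receptor gene, although the nearest start by the rule is that of Eqtn. By gene body in place of start, 157 of the 181 regions had the same nearest gene. The Klf9 region was then nearest to Trpm3 and the Gpr34 region to Cask. All or nearly all genes of most endothelial lists were also nearest to an already open region, such as 100% of the MHC class I and interferon genes, against 55.9% of all protein-coding genes. The share was lower in the lists for xenobiotic and oxidative enzymes (59.1%), cell cycle (72.2%) and adhesion (84.2%). The lists and the regions were both chosen with earlier results known, so these counts are no test.

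Some genes had several gained regions. Ly6e had 3, of which the other two, at chr15:74939937-74940853 and chr15:74960761-74961171, had 8 and 9 adult libraries and 4 and 7 P6 endothelial libraries. Syne1, Hpcal1, Ldb2, Emcn, Rassf9 and Rtkn2 had 2 each, and both Rtkn2 regions lie inside Arid5b. The Emcn regions differed in organ. That at chr3:137226177-137226590 was open in adult heart, liver and kidney, and that at chr3:137280804-137281579 in adult brain, retina and heart.

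At P6 the gained regions were present in part. All but 1 of the 181 had a peak in at least 1 of the 14 P6 endothelial libraries, with a median of 7 libraries, and 3 had a peak in all 14, namely those of Cry2, Lhpp and Nostrin. The exception was the region of Mal, which encodes a membrane raft protein, at chr2:127649744-127650317. It was open in adult brain, retina and kidney. It had adult folds from 2.66 through 3.33 to 3.83, no peak in any P6 endothelial library and a peak in 4 of 16 P6 input libraries. By the measure used at adult, 107 of 181 regions (59.1%) were already open in 3 or more organs at P6, and 8 were open in none. Of the 22481 regions already open at E12, 22479 had a peak in at least 1 P6 endothelial library. Their median was 14 libraries, and 69.2% had a peak in all 14. The share of gained regions with a peak per library was 40.9 to 78.5% at adult (median 62.7%) and 19.9 to 76.8% at P6 (median 52.2%), so the 2 groups of libraries overlapped widely. The already open regions had a median of 88.6% at adult and 96.1% at P6. The lists of each age differ in length, and this difference in order between the 2 sets of regions was not tested.

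**Figure D2:**
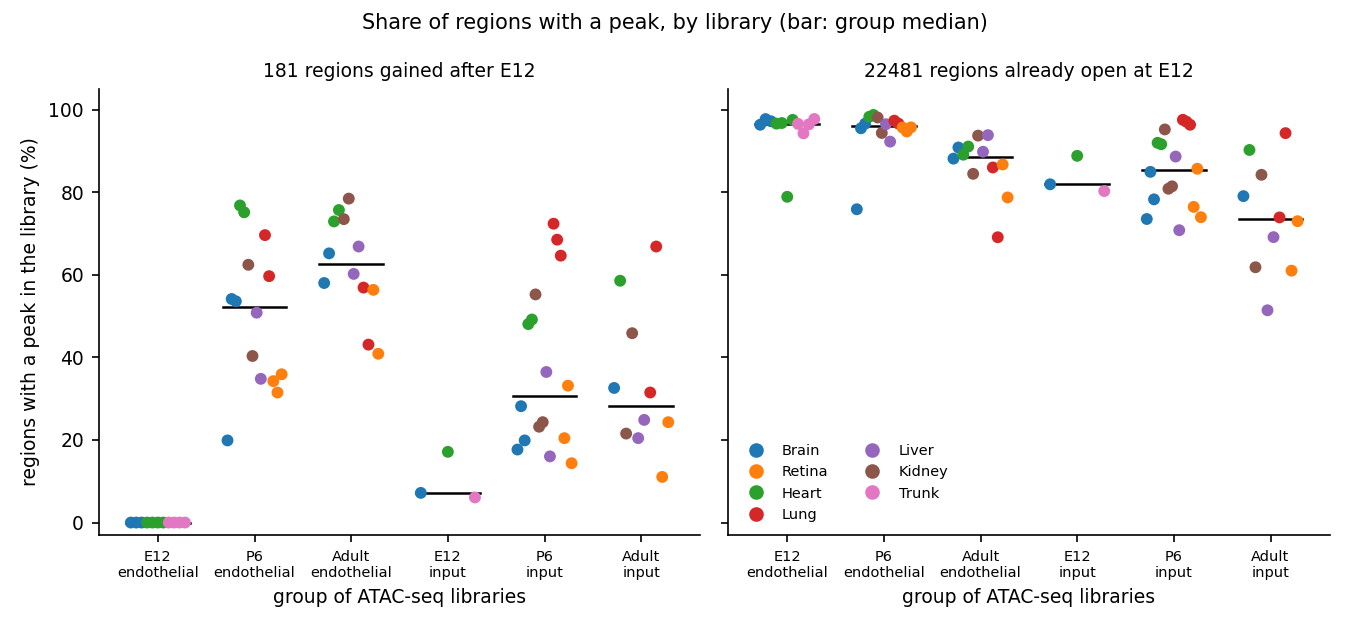
Share of regions with a peak (y axis, percent) in each of the 66 ATAC-seq libraries, grouped by age and kind (x axis), for the 181 gained regions on the left and the 22481 already open regions on the right. Each point is a library coloured by organ and bars are group medians; the left panel is 0 in E12 endothelial libraries by the rule and ranges from 19.9 to 76.8% in P6 endothelial and from 14.4 to 72.4% in P6 input libraries.

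Organs differed in how many of their adult regions were present at P6. Of the 132 gained regions open in adult heart, 114 (86.4%) had a peak in both P6 heart libraries, and of the 75 in lung, 66 (88.0%) had one in both P6 lung libraries. The figures were 70 of 102 (68.6%) for brain and 41 of 72 (56.9%) for retina, each with at least 2 of 3 P6 libraries. They were 68 of 128 (53.1%) for kidney and 56 of 108 (51.9%) for liver. For already open regions the same measure gave 96.9 to 99.5% in every organ. Some gained regions were open at P6 in an organ where they were not open at adult. This held for 42 of 106 regions (39.6%) in lung, 16 of 49 (32.7%) in heart, 17 of 109 (15.6%) in retina, 12 of 79 (15.2%) in brain, 5 of 73 (6.85%) in liver and 3 of 53 (5.66%) in kidney. An organ counted at adult only where both of its libraries had a peak, and adult lung endothelial library 2 had the shortest endothelial list. The same measure was not computed for already open regions. The P6 heart endothelial lists held 75.1 to 76.8% of the gained regions, the P6 lung lists 59.7 to 69.6% and the P6 kidney lists 40.3 to 62.4%. The P6 lung input lists held 64.6 to 72.4%, a range that overlaps that of lung endothelial lists.

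**Figure D3:**
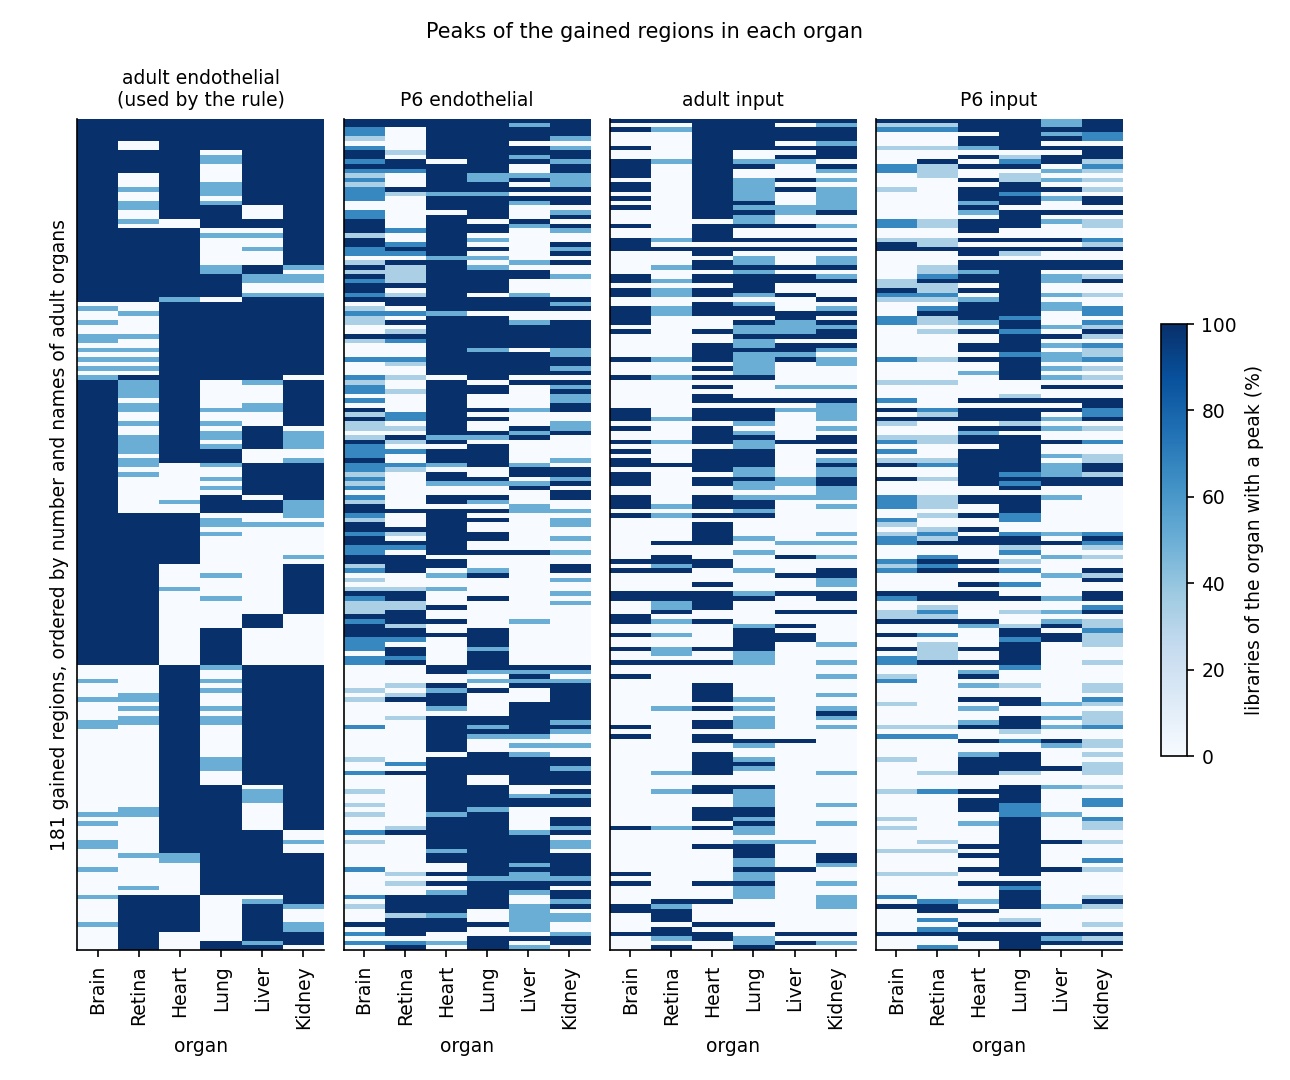
Each of the 181 gained regions (rows of colour, ordered by number and names of adult organs) in each organ (x axis), with colour for the share of that organ's libraries with a peak, from 0 to 100%. The panels show adult endothelial libraries, which the rule used, P6 endothelial, adult input and P6 input; the heart and lung columns are the most filled at P6.

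Most gained regions also had a peak in at least 1 input library. Of the 181, 167 (92.3%) had a peak in at least 1 of the 10 adult input libraries, against 98.8% of already open regions. The other 14 had none, and 2, those of Cry2 and Max, had one in all 10, against 40.0% of already open regions. The median adult input library held 28.2% of them (20 to 121 regions per library) and the median P6 input library 30.7%, and the ranges overlapped those of the endothelial libraries. The medians for already open regions were 73.4% and 85.3%. The own adult input of an organ held 97.3% of the gained regions open in lung endothelium, 65.2% in heart, 56.3% in kidney, 48.6% in retina, 42.2% in brain and 26.9% in liver. For already open regions the same measure gave 99.4% in lung, 92.8% in heart, 88.2% in kidney, 89.1% in retina, 85.8% in brain and 74.8% in liver. Brain and heart had 1 adult input library and the other organs 2, of which either could hold the peak. The 2 adult lung input libraries differed, with 31.5% and 66.9% of all gained regions. In bulk tissue, fewer cells of a type and less open chromatin per cell cannot be told apart. The E12 input libraries held 7.18% in brain, 6.08% in trunk and 17.1% in heart, and 138 of the 181 had no peak in any of the 3. They held 81.9%, 80.3% and 88.8% of the already open regions, of which 91.4% had a peak in at least 1 of the 3, against 23.8% of the gained regions. No peak in any of the 29 input libraries was found for 5 regions, nearest to Olfr1396, Zhx3, Papss1, Zbtb45 and Cibar2.

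Presence of a peak at P6 was not a condition of the rule, and endothelial and input libraries were compared at that age. The rule asked for adult endothelial peaks and set no condition on input, so the choice may favour a larger endothelial share at P6. The P6 endothelial lists, but not the input lists, helped to set where the merged regions begin and end. Each region was tested by an exact 2-sided permutation of the endothelial and input labels within organ, with Benjamini-Hochberg adjustment over all 275396 regions and a call at adjusted p under 0.05. More often in endothelial than input lists were 9 gained regions (4.97%), against 1.46% of all merged regions and 4.86% of already open ones. More often in input was 1, against 0.353% and 0.0178%. The share called among gained regions was therefore close to that of the already open regions. Already open regions had medians of 14 of 14 P6 endothelial and 16 of 16 P6 input libraries, leaving many little room for a difference. At unadjusted p under 0.05 there were 41 (22.7%) more often in endothelial lists, against 6.32% of all merged and 15.8% of already open regions. There were 7 (3.87%) more often in input, against 5.8% and 0.369%. Regions were also merged from the adult endothelial lists alone. This changed the number of P6 endothelial libraries for 2 of the 181 and that of P6 input libraries for 5. Then 16 gained regions were called more often in endothelial lists, all 9 among them. There 109038 regions were tested, of which 5.76% were called in that direction, and 8.45% of the already open ones. Without a single library, one of P6 brain endothelial 3, kidney endothelial 1, kidney input 2 or 3, or retina input 1 or 3, 5 of the 9 remained.

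The 6 called regions with the largest differences were those of Irf1, Clec2e, St3gal2, Cibar2, Lhpp and Nostrin. Near Irf1, a transcription factor of the interferon response, chr11:53812997-53813841 had a peak in 12 of 14 endothelial and 3 of 16 input libraries (adjusted p = 0.0191, exact permutation). The 3 input libraries were all of kidney, and the 2 endothelial libraries without a peak were of retina. The regions near Clec2e, a C-type lectin, at chr6:129131749-129132471 and near St3gal2, a sialyltransferase, at chr8:110966457-110967018 had the same 12 and 3 libraries in number (adjusted p = 0.0191 each, exact permutation). In both, the 3 input libraries with a peak were the 3 of lung. The calls of Irf1, Clec2e and St3gal2 were lost when the organs were pooled in the test (adjusted p = 0.0603 each, Fisher's exact test).

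The region near Cibar2, at chr8:120188450-120188933, had a peak in 9 endothelial and 0 input libraries (adjusted p = 0.0232, exact permutation). The endothelial libraries were 2 of brain, 1 of retina and both of heart, lung and kidney, and none of liver. At adult it was open in brain, heart and kidney. Inside Lhpp, a phosphatase gene, chr7:132670142-132671174 had a peak in all 14 endothelial and 6 input libraries (adjusted p = 0.0232, exact permutation). Of the input libraries 3 were lung, 2 liver and 1 kidney. Over the alternatives tried, the Cibar2 call was kept in 33 and lost in 3, and the Lhpp call was kept in 34 and lost in 2. Most of these alternatives only left out 1 P6 library. With organs pooled, 3 of the 9 calls were kept, with P6 lists of equal length 2 and with −log10 q of at least 5, 1. The replicate block of the closing section kept 0. All 9 were kept with at least 2 P6 libraries required and with regions merged from adult lists. Inside Nostrin, which encodes an adaptor that binds endothelial nitric oxide synthase, chr2:69137392-69138013 had a peak in all 14 endothelial and 6 input libraries (adjusted p = 0.0315, exact permutation). Its adult folds ran from 2.80 through 3.89 to 4.42 over 9 libraries, with none in either lung library. The Nostrin call was lost without any one of 18 libraries, with adjusted p up to 0.0691 (exact permutation). The other 3 called regions were those of Ppara, Extl3 and Trappc10, with 11, 10 and 13 endothelial and 3, 2 and 5 input libraries.

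Of all 181 gained regions, 131 (72.4%) had a peak in a larger share of the P6 endothelial than input libraries, 47 in a larger share of input libraries, and 3 in equal shares. The share larger in endothelial libraries was 37.6% over all merged regions and 35.5% over already open ones, of which 51.6% had equal shares. The difference between these sets of regions was not tested.

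**Figure D4:**
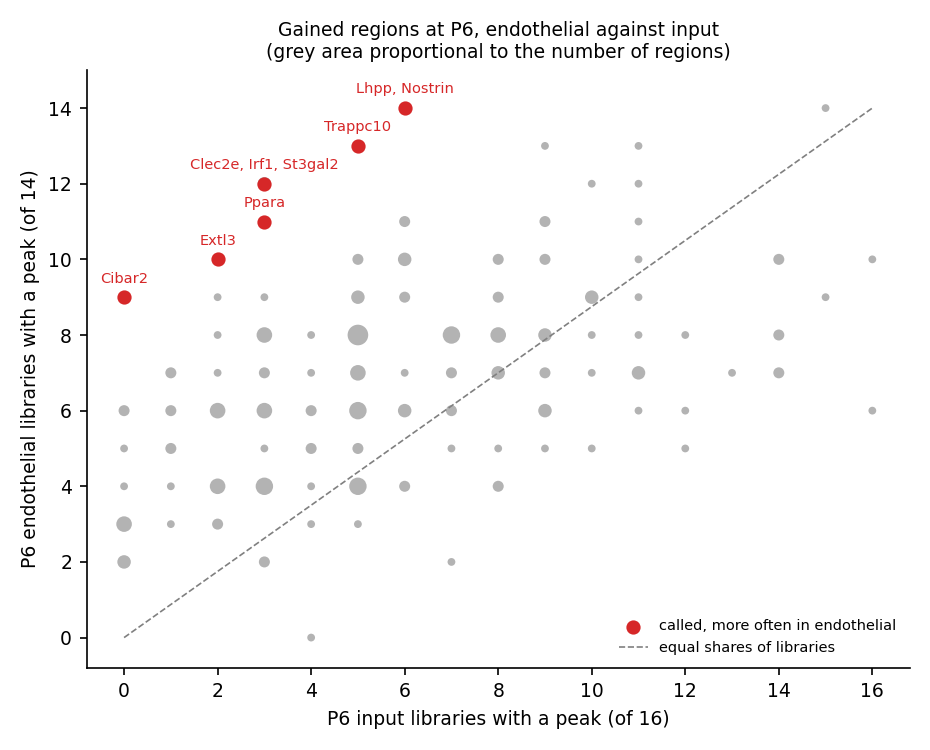
P6 endothelial libraries with a peak (y axis, of 14) against P6 input libraries with a peak (x axis, of 16) for the gained regions; grey area is proportional to the number of regions and the dashed line marks equal shares. The 9 regions called more often in endothelial lists, in red, have 9 to 14 endothelial and 0 to 6 input libraries.

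Expression of the nearest genes was read from single-cell RNA-seq of brain cells enriched with CD31 beads, from whole brain at E12.5 and from cortex at P8 and adult. Cells with UMIs of at least 3 of 12 endothelial marker genes were kept, 7044 of 8310 at E12.5, 6197 of 7305 at P8 and 3995 of 5552 at adult. Their UMIs, 85934691, 65120770 and 25260949 in all, were summed, and levels are CPM, the UMIs of a gene scaled to the same total in each library. No doublet caller was run, so cells with markers of a second type were not removed. The libraries shared 5 to 11 cell barcodes each with the others. There was 1 library per age, so no test was possible. A gene counts as higher or lower where its CPM differed at least 2-fold and the 95% Poisson intervals, which cover counting error only, were apart. Markers of other cells differed too. The summed level of 12 mural genes was 116 CPM at E12.5, 672 at P8 and 1549 at adult, and that of 16 immune genes 714, 117 and 129. That of 12 fibroblast genes was 58.4, 70.8 and 131, that of 24 organ parenchyma genes 212, 2015 and 69.8, and that of 10 erythroid genes 8049, 15931 and 7987. The 12 endothelial markers summed to 6416, 10362 and 12171 CPM. The part of these cells, of brain region and of depth in the differences was not tested.

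Among the 173 nearest genes, 170 were in the matrix and 156 had at least 10 UMIs over the E12.5 and adult libraries. Of these, 82 (52.6%) were higher at adult, against 27.9% of all genes and 28.7% of the nearest genes of already open regions. Lower were 28 (17.9%), against 23% and 21%. The median log2 ratio of CPM + 1 was 0.98, against 0.03 for all genes and 0.09 for the nearest genes of already open regions. Of nearest genes of already open regions further than 10 kb away, 37.2% were higher. Within gained regions the share was 54.3% where the region was open in adult brain and 50.0% where it was not, a difference that was not tested. It was 58.7% for regions within 10 kb of their gene and 50.5% for those further. Of the 82 higher genes, 70 had a P8 level between those of E12.5 and adult, and 34 were at least 10-fold higher at adult.

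The largest ratio was that of Fmo2, whose promoter sequence is shown above, at 0.0233 CPM (2 UMIs) at E12.5, 1.46 at P8 and 437 at adult. The ratio was 18783, with a counting interval of 5199 to 155120. Xdh had 0.0465 CPM (4 UMIs) at E12.5 and 0.0921 (6 UMIs) at P8, and its adult level was 3767-fold that at E12.5 (1470 to 13831), so nearly all of the difference lay between P8 and adult. Ppara, the fatty acid receptor whose region was also called at P6, had 2 UMIs at E12.5 and 5.15 CPM at adult (221-fold, 60.0 to 1845). Lmntd1 was 113-fold and Galnt15, a glycosyltransferase, 107-fold higher. Lao1 and Tgtp2 had 0 UMIs at E12.5. Set against the 3 counts that a 0 allows, their adult levels of 9.03 and 2.81 CPM were about 259-fold and about 80.5-fold higher. These 2 ratios leave out the counting error of the adult level. Lipe, the third gene with a gained promoter, was 2.50 CPM at E12.5, 12.2 at P8 and 48.7 at adult.

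Nostrin, Klf9, Ly6e, Vcam1, Irf1, Fas and Nlrc5 were also higher at adult. Nostrin was at 9.68, 325 and 669 CPM at E12.5, P8 and adult, Klf9 at 6.03, 92.0 and 563, and Ly6e at 71.5, 389 and 1332. Vcam1 was at 3.50, 33.9 and 183 CPM, Irf1 at 5.52, 21.2 and 69.5, and Fas at 4.89, 12.6 and 179. Nlrc5 had 1 UMI at E12.5 and 1.19 CPM at adult (102-fold, 17.0 to 4164). Among the regions open in all adult libraries, Cry2 was 4.50-fold, Sos2 7.35-fold, Tgm2 8.64-fold and Gfod1 2.17-fold higher. Aldh2 was 23.8-fold, Insr 4.63-fold and Por 2.36-fold higher. Mal, with no P6 endothelial peak, was at 17.3 CPM at E12.5, 103 at P8 and 1808 at adult. Mbp, a marker of myelin-forming cells, which also express Mal, was at 28.8 CPM in the adult cells, against 1.01 at E12.5. The part of such cells in the Mal difference was not tested.

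**Figure D5:**
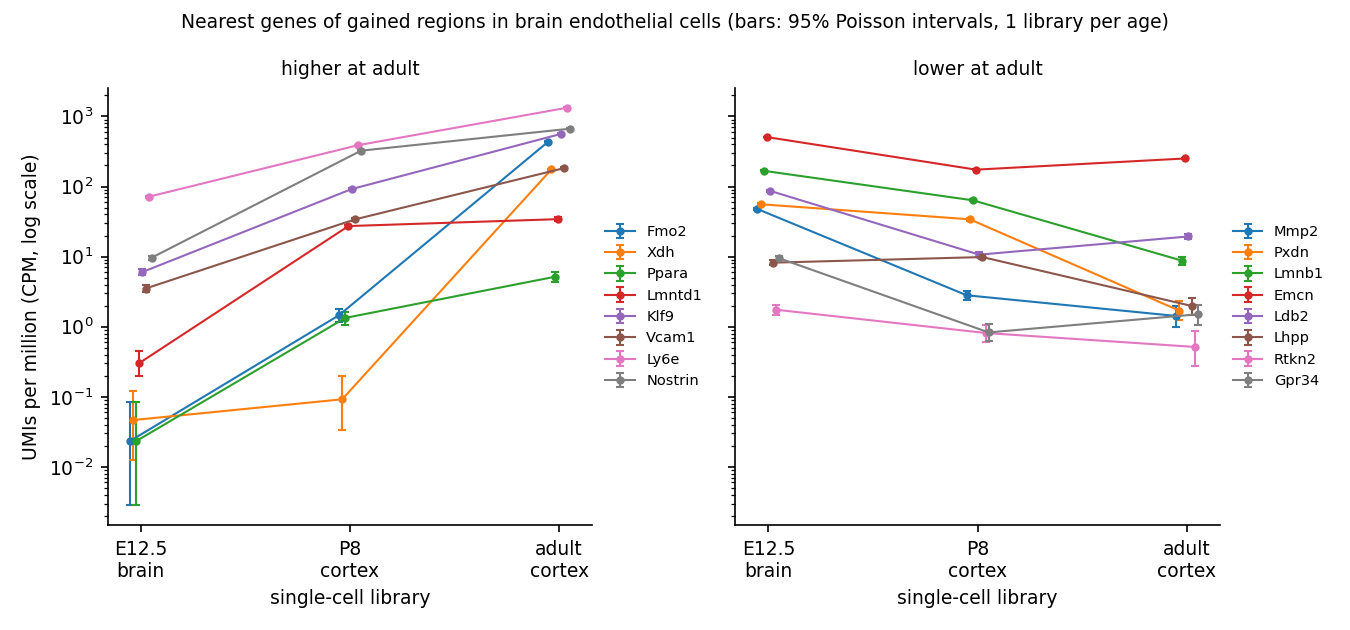
Level of 16 nearest genes (y axis, CPM, log scale) in endothelial cells of 3 single-cell libraries (x axis), with 95% Poisson intervals as bars. The left panel shows 8 genes higher at adult, Fmo2 from 0.0233 to 437 CPM, and the right panel 8 genes lower at adult, Mmp2 from 47.7 to 1.43 CPM.

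Other nearest genes of gained regions were lower at adult. Mmp2, a matrix protease, was at 47.7 CPM at E12.5 and 1.43 at adult, 33.5-fold lower (24.1 to 47.9). Pxdn, which cross-links collagen IV, was 32.8-fold and Lmnb1 19.2-fold lower. Emcn, with 2 gained regions, was at 508, 174 and 252 CPM, close to the 2-fold limit between E12.5 and adult. It is among the 12 marker genes by which cells were kept, so its level is not independent of that choice. Ldb2, a cofactor of LIM-domain transcription factors also with 2 gained regions, was at 86.8, 10.7 and 19.4 CPM. Lhpp, open in all 14 P6 endothelial libraries, was at 8.20, 9.86 and 1.98 CPM. Gpr34, a receptor of microglia, was at 9.46 CPM at E12.5 and 6.29-fold lower at adult, where the summed immune genes were also lower. Neither higher nor lower by the rule were 46 genes, among them Arntl (5.11 and 2.97 CPM at E12.5 and adult), Sgk1 (97.9 and 129), Etv6 (15.0 and 22.6), Elk3 (276 and 160), and Col4a2 (429 and 259). Clec2e, with 1 and 6 UMIs, was among 14 genes under the minimum of 10 UMIs.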

How the data were processed

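The authors deposited 1 broad peak list per ATAC-seq library, made with MACS2 2.1.2 without a control, per the file headers (shift -100, extension 200, q 0.05 and 0.1, 1 tag per position), and replicates were not pooled. Reads were aligned to mm10 with Bowtie2 and handled with SAMtools 1.13 and Picard, per the submitters' processing notes. Per the file headers, the deposited lists give pileup signal, fold over local background (a ratio) and −log10 p and q. The single-cell tables hold deposited UMI counts from Cell Ranger, per the submitters' processing notes. RNA-seq files were not used here.

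From these, peak presence per merged region was computed. Nearest protein-coding genes, promoter windows and sequences came from RefSeq tables (GRCm38.p6). These hold no promoter for some genes. At P6, peak presence was tested by exact permutation within organ. Analyses used Python 3.11.15, NumPy 2.4.6, pandas 2.3.3, SciPy 1.17.1 and Matplotlib 3.10.9, and the tests were tested on simulated data. Replicate numbers were not taken to pair the P6 libraries, and whether they do was not settled.

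The regions, gene lists and tests were chosen with earlier results of these data known. Regions were named by number of adult libraries and then median adult fold (10), by P6 difference among called regions (6 and up to 3), by number of regions per gene, by gene list, by whole promoter windows and by adult to E12.5 ratio among genes with at least 50 UMIs (5 highest and 3 lowest). Mal, Max, Lao1, Gpr34, the regions in no input list and those kept under both stricter settings were named after their values were seen. The region called more often in input at P6 and 1 other gene are not reported here by name. Alternatives covered peak thresholds, list lengths, organ numbers, left-out libraries, tests, cell and UMI minimums, and are given in the closing section.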

Additional observations from a re-analysis of the deposited data

How the results depend on the processing

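The number of gained regions was 58 with only peaks of −log10 q of at least 5, 859 with equal lists of the 19464 strongest peaks, 57 with 4 or more organs and 771 with 2 or more. Of the 181, 148 met the rule in neither of the first 2 settings. Leaving out 1 library can only loosen the rule as run, since an adult organ with 1 library left counted with that library, so it says nothing about stability. It gave 182 to 269 regions, highest without adult kidney endothelial 1, and 258 without adult lung endothelial 2. List genes nearest to a gained region, 17 as reported, numbered 9, 62, 7 and 53 under those 4 settings, and 17 to 27 without 1 library, the highest without adult lung endothelial 2. The share within 10 kb of a start was 36.2%, 40.2% and 33.3% under the first 3, and the median adult input library held 55.1% of the regions with equal lists. At P6, regions more often in endothelial lists numbered 3 with Fisher's exact test, 3 with equal P6 lists of 27160 peaks and 2 with −log10 q of at least 5, and those more often in input 0, 0 and 2. Over all regions, calls in either direction also fell, from 5000 to 2297, 3227 and 2532. Without 1 P6 library, 5 to 9 gained regions were called more often in endothelial lists and 0 to 1 in input. Calls over all regions then numbered 2295 to 4872. Testing only regions with at least 2 P6 libraries gave 11 more often in endothelial lists, where 7758 of 190971 regions were called in either direction. Regions merged from adult lists only, chosen after seeing the data, gave 16, where fewer regions were tested and 7607 of 109038 were called. A replicate block was run as a 2-sided exact sign test on 12 pairs of same-numbered P6 endothelial and input libraries, none of liver. It called 0 and 0 gained regions and 0 of all 275396 regions. With 12 pairs this test cannot give a very small p. Calls after adjustment over all regions were therefore hardly possible, and no conclusion is drawn from the 0. Same-numbered endothelial and input libraries had correlations from -0.0027 to 0.204 over 12 pairs, of which 2 were over 0.1 and 8 were highest with their own number. The numbers were not taken as pairs in the main test, and whether they mark pairs was not settled. In the single-cell data, a pseudocount of 10 CPM gave 56 genes higher and 9 lower of 156 (35.9% and 5.77%, against 11.2% and 9.01% of all genes). Only regions open in adult brain, chosen after seeing the data, gave 51 and 14 of 94 (54.3% and 14.9%). Organ counts and expression were not recomputed for the 58 and 859 regions. Depth limits the list of each library, since a region without a peak may be open below the threshold.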
